A study of Drosophila melanogaster with 4 samples.

Results

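Germ plasm is the cytoplasm at the posterior pole of the fly egg that instructs cells to become germ line, and 10 genes that build it or that place maternal RNA in the oocyte were followed in pole cells, the embryonic germ-line precursors of Drosophila melanogaster. The members were taken by name from the platform's gene annotation, wherever a probe was annotated to that gene alone. This gave 8 genes with 20 probes, of 10804 genes with 17328 such probes in all: osk, stau, capu, tud and gcl with posterior roles, and bcd, exu and swa with anterior roles. The helicase gene vas had only 1 annotated probe, which it shares with a second gene, and vls had none, so neither is given a value.

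The study drove a transgene of the Ste20-family kinase Tao in the germ line. Mothers homozygous for the driver nosGal4:VP16, or yw mothers in the non-driven cells, were mated with males that carried a UAS-tao-1 transgene and the germ-line marker EGFP-Vas. The transgene was D168A, called dominant negative in the labels, or D168D, for which the labels speak of a wild-type form, of overexpression and of gof. Driven and non-driven embryos alike therefore had the transgene and EGFP-Vas from the father and differed in the mother, and the effect of the mother's genotype cannot be told apart from that of the transgene. FACS on EGFP-Vas collected pole cells of embryos at stages 8 to 14, and 4 two-colour Agilent arrays were run from 100 ng of their total RNA after amplification. On each array driven cells were hybridised with non-driven cells of the same form, and a form has 1 array with its driven RNA in Cy3 and 1 in Cy5. The labels number both alike and they count as 1 replicate, so within a form there is no replicate check.

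Oskar protein, made where its RNA is anchored at the posterior of the oocyte, nucleates the germ plasm and recruits Vasa and Tudor. Its RNA travels in particles with the double-stranded RNA-binding protein Staufen, which in the late oocyte also holds bicoid RNA at the anterior. The members act mainly during oogenesis and at the formation of the pole cells, earlier than the stages sampled here. RNA of these genes in pole cells can be left over from the mother or be transcribed in the embryo, and the arrays do not separate these sources.

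All values below are log2 ratios of driven over non-driven cells, where 1 is a 2-fold difference. Pairs of values from 1 form name the array with driven RNA in Cy3 first and the one in Cy5 after it. A form's value averages the pair, and ± is the distance from that average to either array, an error of hybridisation and dye without biological variation. The labels do not state the direction of the ratios, which was inferred and taken as deposited: Tao itself was at 2.98 and 2.84 on the D168A arrays and at 3.04 and 2.99 on the D168D arrays, above 0 on all 4, and both columns with driven RNA in Cy3 write their zeros as negative, as a change of sign by the authors would leave them. Across genes the 2 arrays of a form hardly went together, with r = -0.10 for D168A and 0.01 for D168D, and in 53.4% and 51.4% of genes they lay on opposite sides of 0. A ratio gives no level, so neither the presence of the members' RNA nor the purity of the sort could be read from it. Fewer cells of a type and less RNA per cell cannot be told apart either. Markers of 6 other cell types (36 of 51 listed genes measured) had medians of 0.01 with D168A and 0.05 with D168D, with form means between -0.31 and 0.85 and between -1.06 and 0.50, and 0 of them reached 2-fold on both arrays of a form. In the difference of the forms, D168A minus D168D, 1 of 36 reached 2-fold in both dye orientations, the hemocyte gene Sr-CI (1.48, named after its value was seen). Their part in the results was not tested.

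No member differed 2-fold in driven cells. With D168A 0 of 8 were at least 2-fold higher or lower on both arrays, where 0.157% of all genes were. With D168D 0 of 8 were, beside 0.167%. At shares this low a count of 0 among 8 says little about the members. Member means lay between -0.44 and 0.23 with D168A and between -0.18 and 0.20 with D168D. Their medians were 0.09 and -0.03, beside 0.01 and -0.01 over all genes. On the single arrays the members' medians were -0.06 and -0.08 with D168A, beside 0.10 and -0.05 with D168D, so a form's median had no stable sign. The largest departure was that of osk with D168A, at 1.36-fold lower.

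**Figure D1:**
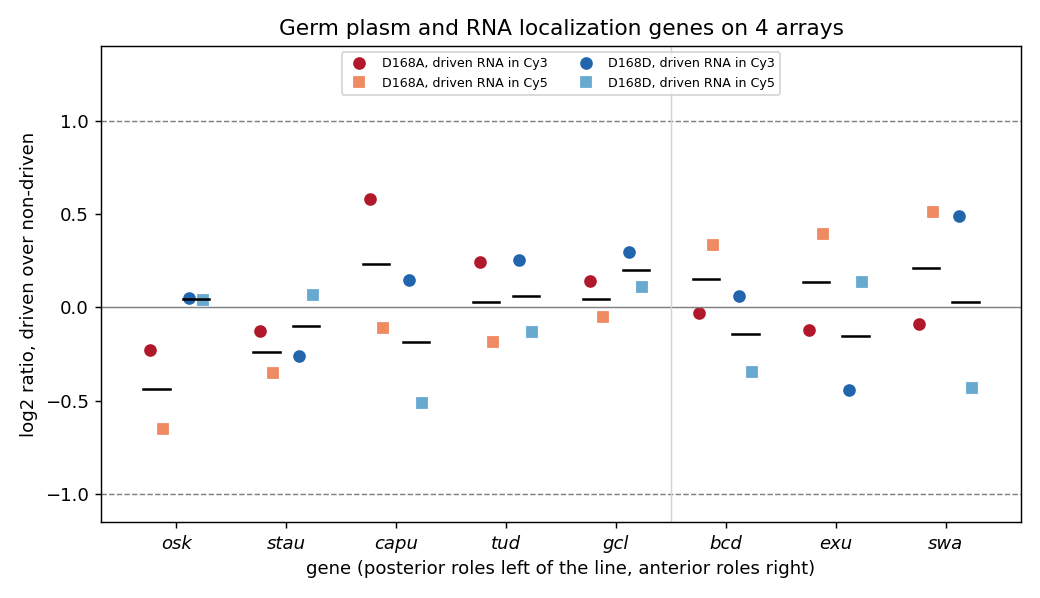
Gene values (mean over a gene's probes, log2 ratio of driven over non-driven cells, vertical axis) of the 8 genes on each of the 4 arrays, with D168A at the left and D168D at the right of each gene, short black lines at the means of a form and dashed lines at 2-fold. No point reaches 2-fold, and osk is the gene with both D168A arrays below and both D168D arrays above 0.

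osk was the member farthest from 0. It was at -0.23 and -0.65 on the D168A arrays and at 0.05 and 0.04 on the D168D arrays. The D168A arrays were both below 0 and the D168D arrays were both above it and close to 0. The form means were -0.44 ± 0.21 with D168A, the 110th lowest of 10804 genes, and 0.0464 ± 0.0047 with D168D, the 6603rd lowest.

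The 3 probes of osk spread more widely than the gene values. With D168A, probe 1 gave -0.41 and -0.44, probe 2 gave 0.05 and -0.76, and probe 3 gave -0.33 and -0.75. With D168D they gave 0.37 and -0.04, -0.04 and -0.12, and -0.18 and 0.28. All 3 probes thus averaged below 0 with D168A (-0.42, -0.35 and -0.54), though probe 2 was above 0 on the Cy3-driven array. The probes and arrays of a form measure 1 replicate, so their number adds no repeats. With D168D the probe means had no common sign (0.16, -0.08 and 0.05). The closeness of the 2 D168D gene values is therefore a mean over probes that disagree.

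stau, which encodes the RNA-binding partner of oskar and bicoid RNA, was the other member below 0 on both D168A arrays, at -0.12 and -0.35. On the D168D arrays it was at -0.26 and 0.07, on both sides of 0. The means were -0.24 ± 0.11 with D168A and -0.10 ± 0.17 with D168D. Both of its probes were below 0 on both D168A arrays, at -0.21 and -0.26 for probe 1 and at -0.04 and -0.44 for probe 2. That held for 1 of 8 members, and 5.86% of the genes with 2 or more probes have it.

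capu encodes a formin that nucleates actin filaments and is needed in the oocyte for the posterior placement of osk RNA. It was at 0.58 and -0.11 on the D168A arrays and at 0.15 and -0.51 on the D168D arrays. In either form the arrays lay on both sides of 0, and the Cy3-driven array was the higher one. Its means were 0.23 ± 0.34 with D168A and -0.18 ± 0.33 with D168D, each smaller than the distance of its arrays. The 2 probes disagreed: probe 1 was at 1.31 and 0.37 with D168A, beside 0.59 and -0.81 with D168D, while probe 2 was at -0.15 and -0.59 with D168A, beside -0.29 and -0.22 with D168D. The value of 1.31 was the only one among 20 member probes past 2-fold on that array, where 0.889% of all probes were.

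tud, whose product is the Tudor-domain scaffold of the polar granules, was at 0.24 and -0.19 with D168A, beside 0.25 and -0.13 with D168D, so in both forms the Cy3-driven array was above 0 and the Cy5-driven array below it. On the Cy5-driven D168D array its probes disagreed, at -0.34 for probe 1 and 0.08 for probe 2. The order of the arrays was the same in both forms for 5 of 8 members and for 51.0% of all genes. In the means of both orientations it was near 0, at 0.03 ± 0.22 with D168A and 0.06 ± 0.19 with D168D.

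gcl, needed to form pole cells and encoding an adaptor of a ubiquitin ligase, was at 0.14 and -0.05 with D168A, beside 0.29 and 0.11 with D168D. It was above 0 on 3 of 4 arrays, and its means were 0.05 ± 0.10 with D168A and 0.20 ± 0.09 with D168D. With D168D its probe 1 was at 0.37 and 0.05 and probe 2 at 0.22 and 0.17. It was the 1 member with every probe above 0 on both D168D arrays, which 7.72% of genes with 2 or more probes share. In the other pairings of form and side, 0 members had every probe on that side, beside 7.67% of such genes above 0 with D168A and 5.39% below 0 with D168D.

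**Figure D2:**
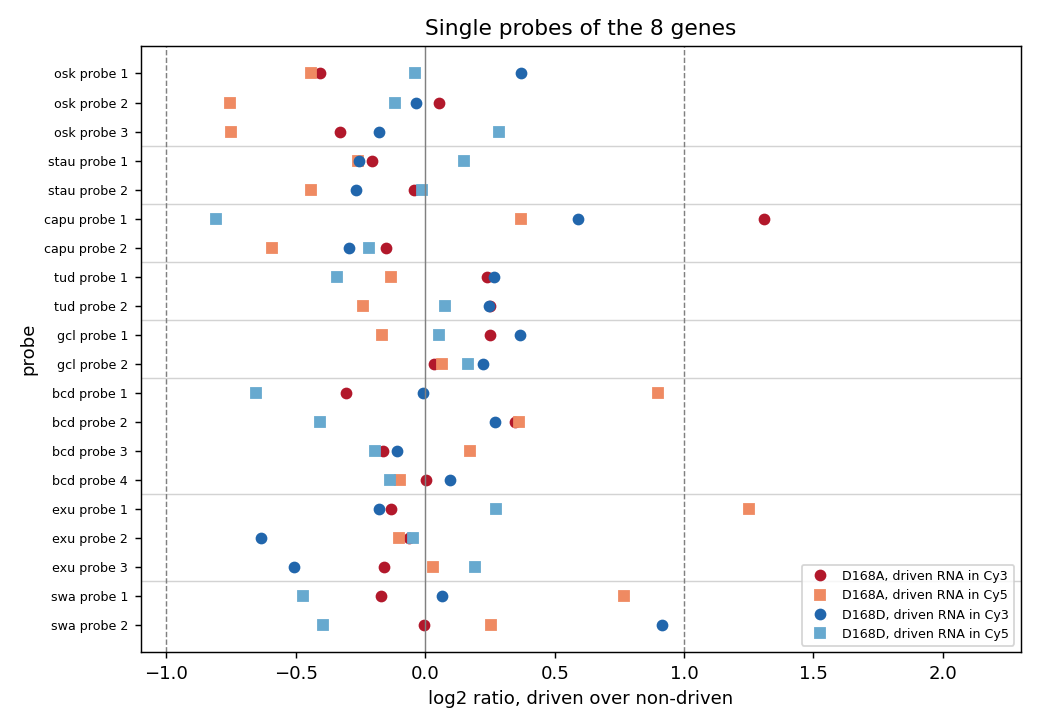
The 20 single probes of the 8 genes, from osk at the top to swa at the bottom, with the log2 ratio of driven over non-driven cells on the horizontal axis, 1 point per array and dashed lines at 2-fold. Values of 1 gene scatter over its probes, as for capu, whose probe 1 reaches 1.31 while probe 2 lies below 0 on all 4 arrays, whereas both probes of stau lie below 0 on both D168A arrays.

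The 3 anterior members all averaged above 0 with D168A, but were below 0 on the Cy3-driven array and above it on the Cy5-driven one. With D168D their means had no common sign. bcd encodes the homeodomain morphogen of the head and thorax, and was at -0.03 and 0.33 on the D168A arrays and at 0.06 and -0.35 on the D168D arrays. Its means were 0.15 ± 0.18 with D168A and -0.14 ± 0.20 with D168D. On the Cy5-driven D168A array its 4 probes ran between -0.10 and 0.90, and on the Cy5-driven D168D array all 4 were below 0, between -0.65 and -0.14.

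exu is needed early in oogenesis to place bicoid RNA at the anterior. It was at -0.12 and 0.39 with D168A, beside -0.44 and 0.14 with D168D, and in both forms the Cy5-driven array was the higher one, unlike tud, gcl and capu. The means were 0.14 ± 0.26 with D168A and -0.15 ± 0.29 with D168D. Probe 1 stood at 1.25 on the Cy5-driven D168A array, beside -0.10 and 0.03 for the other probes. It was the 1 member probe of 20 past 2-fold there, where 3.47% of all probes were.

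swa, whose product anchors bicoid RNA in the late oocyte, had the widest gap between arrays with D168D. It was at -0.09 and 0.51 with D168A, beside 0.49 and -0.43 with D168D. The Cy5-driven array was the higher one with D168A and the Cy3-driven one with D168D, an order that differed between the forms, as in 3 of 8 members. Its means were 0.21 ± 0.30 with D168A and 0.03 ± 0.46 with D168D. The 0.49 came mainly from probe 2, at 0.92, with probe 1 at 0.06.

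Counted by sign, 0 of 8 members were above 0 on both D168A arrays, beside 24.4% of all genes, and 2 of 8, osk and stau, were below 0 on both, beside 21.5%. With D168D 2 of 8, osk and gcl, were above 0 on both arrays, beside 23.3%, and 0 of 8 were below 0 on both, beside 24.1%. With D168A and with D168D alike, 6 of 8 members had their arrays on opposite sides of 0. The typical distance of an array from the form mean was 0.21 for members and 0.11 for all genes with D168A, and 0.20 and 0.16 with D168D. Probes of a member lay on both sides of 0 in 14 of 32 pairings of gene and array (43.8%), close to the 47.3% over all genes with 2 or more probes.

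The contrast common to both forms asked which genes differed alike in the 2 pairs of driven and non-driven cells. In limma on the 2 form means, with Benjamini-Hochberg adjustment over all genes, 0 of 8 members passed an adjusted p of 0.05, where 0.0555% of genes did, and 0 of 8 had an unadjusted p under 0.05, where 13.2% did. No member was above 0 on all 4 arrays, as 9.33% of genes were, or below 0 on all 4, as 8.26% were. With so few genes passing, the 0 of 8 at the adjusted p says little about the members. The p-values measure the spread between 2 pairs, for which the labels name no separate collections.

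The estimates in that contrast ran between -0.20 for osk and 0.12 for gcl. osk was at -0.20 (SE 0.14, adjusted p = 0.494 in limma), with a 95% interval of -0.54 to 0.15. For the mean of the 2 forms that is from 1.46-fold lower to 1.11-fold higher. It sets no limit for either form alone, and the Cy5-driven D168A array of osk, at -0.65, lay outside it. stau was at -0.17 with an interval of -0.40 to 0.06 (adjusted p = 0.428 in limma). gcl and swa were at 0.12 each, with intervals of -0.11 to 0.36 and of -0.12 to 0.36. capu, tud, bcd and exu were within 0.05 of 0, and their intervals reached no lower than -0.29 and no higher than 0.34. The interval of no member reached 2-fold in either direction. These intervals rest on the 2 form means and leave out the distance between the arrays of a form.

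**Figure D3:**
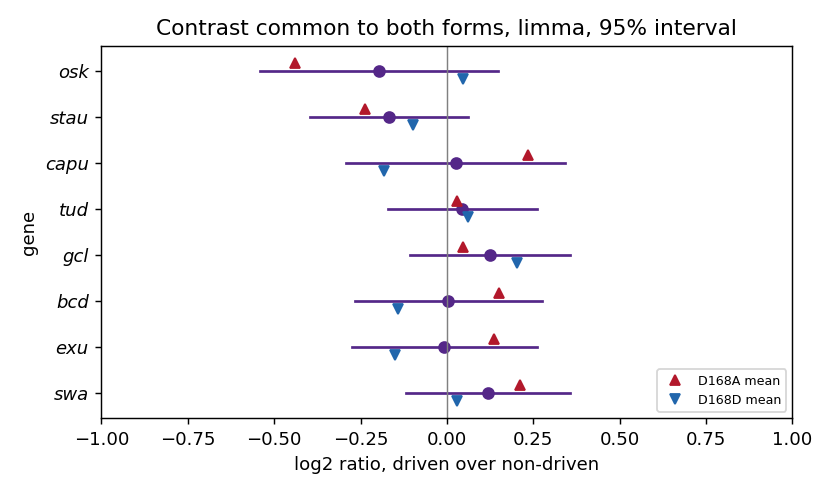
Mean over both forms of the log2 ratio of driven over non-driven cells (circles) with its 95% limma interval (horizontal lines) for the 8 genes, beside the means with D168A (upward triangles) and with D168D (downward triangles). Every interval spans 0 and none reaches 2-fold, which is the edge of the axis.

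Set against each other within a dye orientation, D168A minus D168D, the forms differed by less than 2-fold for all members. In both orientations 0 of 8 reached 2-fold, where 0.139% of genes did, so this count too says little. Whatever a dye does alike in both forms drops out of the difference. osk, gcl and tud (3 of 8) were lower with D168A in both orientations, beside 17.2% of genes, and capu and exu (2 of 8) were higher in both, beside 22.2%. Each form is 1 replicate, so the differences between forms were not tested against variation between replicates. A limma fit over the arrays, given at the end, covers dye-swap error only.

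The difference of osk was -0.28 with the driven RNA in Cy3 and -0.69 in Cy5, with a mean of -0.48 ± 0.21. By probe it was -0.78 and -0.40 for probe 1, 0.09 and -0.64 for probe 2, and -0.15 and -1.03 for probe 3. Probe 2 was thus above 0 in Cy3, and all 3 probes measure the same replicates. Both D168A arrays below and both D168D arrays above 0, or the reverse, occurred in 1 of 8 members and in 4.91% of all genes.

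In gcl the difference was small and steady, at -0.15 and -0.16, and both probes gave it in both orientations, at -0.12 and -0.22 for probe 1 and at -0.19 and -0.10 for probe 2. capu differed by 0.43 and 0.40, but through probe 1 alone, which gave 0.72 and 1.18, while probe 2 gave 0.14 and -0.37. exu differed by 0.32 and 0.25. Probe 1 of exu gave 0.04 and 0.98, whereas probes 2 and 3 gave 0.57 and 0.35 in Cy3 and -0.05 and -0.16 in Cy5, so no single probe repeated the gene's value. tud differed by -0.01 and -0.05, with probe 1 at -0.02 and 0.21 and probe 2 at 0.005 and -0.32. Neither probe of tud was thus lower with D168A in both orientations.

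The other members had no settled direction between the forms. bcd was at -0.09 and 0.68, stau at 0.14 and -0.42 and swa at -0.58 and 0.94 for D168A minus D168D, by orientation.

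**Figure D4:**
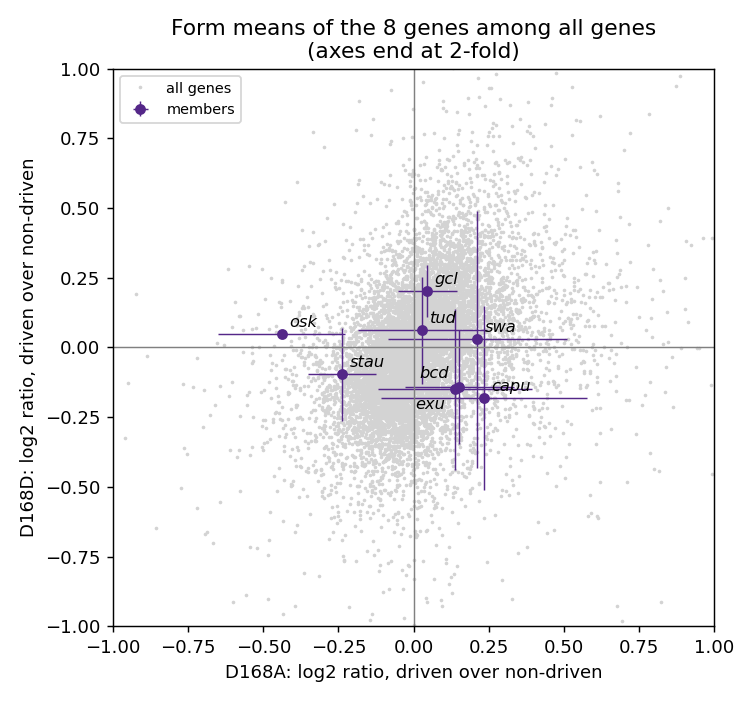
Form means of the log2 ratio of driven over non-driven cells, D168A on the horizontal and D168D on the vertical axis, for the 8 genes (labelled points, bars to the 2 arrays of each form) over all genes within 2-fold (grey dots). The bars of osk stay left of and just above 0, while those of tud, bcd, exu, swa and capu cross 0 in both directions.

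Among all genes, those nearest to osk over the 4 arrays by Euclidean distance of the log2 ratios were CG12538 (0.165), CG6040 (0.182) and Irk3 (0.202), the last a gene of the inwardly rectifying potassium channel family. CG6040 shared the pattern of signs, at -0.36 with D168A and 0.14 with D168D.

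Further genes of germ plasm and RNA localization, from 5 lists, had 48 of 65 members measured. None was 2-fold higher or lower on both arrays of a form, and in limma on the 2 form means 0 passed an adjusted p of 0.05, while 8 of 48 (16.7%), all higher in driven cells, had an unadjusted p under 0.05, beside 13.2% of all genes (864 higher and 558 lower). Above 0 on both arrays lay 19 of 48 (39.6%) with D168A and 21 of 48 (43.8%) with D168D, beside 24.4% and 23.3% of all genes. Below 0 on both lay 7 (14.6%) and 6 (12.5%), beside 21.5% and 24.1%. Of 7 measured pole cell and germ line markers, which share genes with the 5 lists, 57.1% were above 0 on both D168A arrays and 28.6% on both D168D arrays. Among the 36 markers of other cell types these shares were 27.8% and 36.1%. By cell type, with 4 to 8 measured genes each, they ran from 0% (gonadal soma, muscle, neurons) to 57.1% (midgut and yolk) with D168A. With D168D they ran from 0% (muscle) to 50% (gonadal soma, and hemocytes and fat body). The part of such cells in the lists' values was not tested. The medians of the 48 genes were 0.05 with D168A and 0.20 with D168D, beside 0.09 and -0.03 for the 8 genes. Whether the lists and the 8 genes differ was not tested.

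Other germ plasm components (14 of 19 measured) had medians of 0.09 with D168A and 0.20 with D168D. The highest was CycB, the mitotic cyclin whose RNA is kept in pole cells, at 0.56 and 0.31 with D168A, beside 0.49 and 0.37 with D168D, on the same side of 0 on 4 of 4 arrays (0.43, SE 0.08, adjusted p = 0.333 in limma). By the mean of both forms, the measure used for CycB too, the lowest was tej, a Tudor-domain gene of the piRNA pathway (-0.12). Its arrays were at 0.04 and 0.01 with D168A, beside -0.45 and -0.09 with D168D. nanos, the translational repressor whose RNA is localized to germ plasm, was at 0.12 and -0.12 with D168A, beside -0.07 and 0.24 with D168D.

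Genes of oskar RNA transport (12 of 16 measured) had medians of 0.04 with D168A and 0.14 with D168D. They ran, in the mean of both forms, from -0.10 for CG7483, the exon junction complex helicase eIF4AIII, to 0.26 for RnpS1 of the same complex. Translational regulators of localized RNA (10 of 13 measured) had medians of 0.06 and 0.20, between twin, a deadenylase (-0.15), and eIF4E1, the cap-binding factor (0.31), which was at 0.05 and 0.10 with D168A, beside 0.40 and 0.68 with D168D. Actin and membrane partners of capu (5 of 8 measured) had medians of 0.06 and 0.27. Among these, spir, the actin nucleator that works with Capu, was at 0.10 and -0.24 with D168A, beside 0.17 and 0.38 with D168D, and tsr, the cofilin gene, was highest, at 0.29 in the mean of both forms.

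Genes tied to bicoid RNA anchoring and to the microtubules it uses (7 of 9 measured) had medians of -0.04 with D168A and 0.15 with D168D. gammaTub37C, the maternal gamma-tubulin, stood above 0 on 4 of 4 arrays, at 0.38 and 0.30 with D168A, beside 0.57 and 0.48 with D168D (0.43, adjusted p = 0.333 in limma). In the mean of both forms Grip128, of the gamma-tubulin ring complex, was lowest (-0.22). Its arrays were at -0.07 and -0.25 with D168A, beside -0.40 and -0.18 with D168D. Both of these genes have 1 probe.

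**Figure D5:**
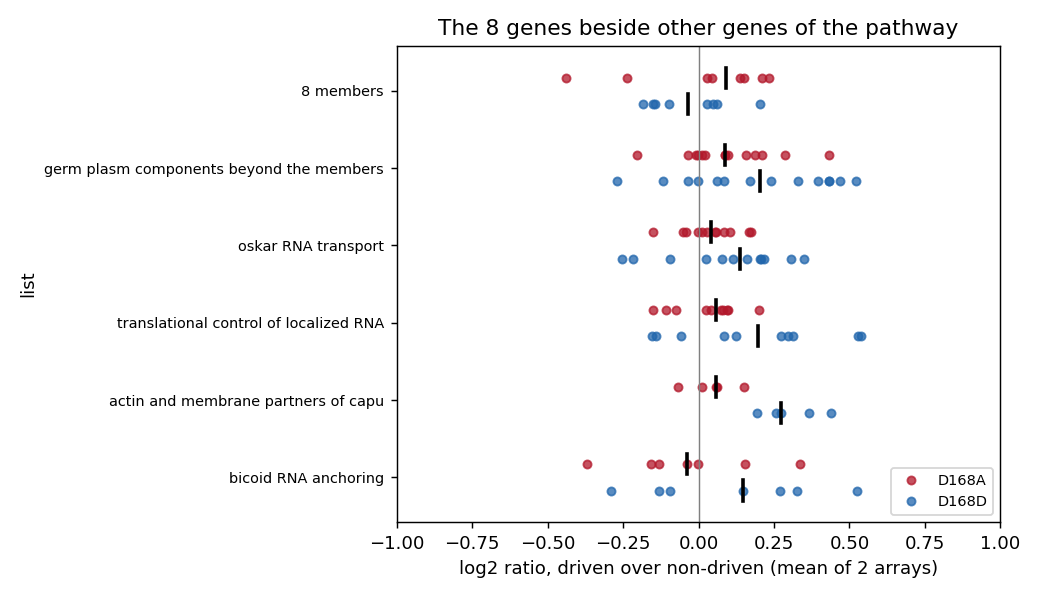
Form means of the log2 ratio of driven over non-driven cells (horizontal axis) for the 8 genes and for 5 lists of other germ plasm and RNA localization genes, 1 point per gene, D168A above D168D in each row, with black ticks at the medians. The D168D medians of the 5 lists lie between 0.14 and 0.27, that of the 8 genes at -0.03.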

How the data were processed

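The authors deposited a log10 ratio for every feature of 4 two-colour arrays. Agilent Feature Extraction 7.1 made it, per the submitters' processing notes. How background and dyes were corrected is not given in the sources used here, and it is unknown if the authors centred the ratios: the array medians over genes were at most 0.0140 from 0 (log2). The log base was read from that software and from the largest deposited size, which is 2, its 100-fold limit. Spot intensities were not used here, so brightness over background is not known. Precision is limited by how few arrays there are.

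The platform annotation pairs 17328 of 22575 features with 1 gene symbol, 326 with several and 4921 with none. Features with 1 symbol were used. All 8 member symbols matched the RefSeq table of Release 6 plus ISO1 MT by gene ID, and no coordinates were used. Ratios were turned into log2 and probes averaged per gene (10804 genes). No sign was turned, since the deposited ratios of all 4 arrays appear to run as driven over non-driven, an inference from Tao and the negative zeros that the labels do not state. Each form is 1 replicate, so within a form and for the difference a rule of size stood in for a test: at least 2-fold, the same way on both arrays of a form or in both dye orientations of the difference. For the mean of both forms the test was limma 3.58.1 in R 4.3.3 (lmFit and eBayes on the 2 form means against 0, two-sided, 1 residual degree of freedom), adjusted over all genes. The steps were tested on simulated data with planted differences, but how often they call a true 2-fold difference is not given here. The genes named are all members, the highest and lowest of each list and the 3 genes nearest to the member farthest from 0; nanos was named after its values were seen. Members and lists were chosen with earlier results of these data known.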

Additional observations from a re-analysis of the deposited data

Results flagged for a closer look

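osk stood out because both of its D168A arrays were below 0 (-0.23 and -0.65) and both D168D arrays above it (0.05 and 0.04), a difference of -0.48 for D168A minus D168D. The D168D values are near 0, and their 3 probes had no common sign. tej showed the reverse, at 0.04 and 0.01 with D168A, beside -0.45 and -0.09 with D168D, a difference of 0.29, and its D168A values are near 0 as well. Neither difference was tested against variation between replicates, since each form is 1 replicate, and 4.91% of all genes have such a split.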

How the results depend on the processing

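Any run called at most 438 of 10804 genes, so a count of 0 among 8 members says little about them. The count of members past the threshold was 0 in all 4 contrasts and was 0 under every alternative run, among them 1.5-fold, the mean of both arrays alone, a single dye orientation, centred arrays, features listed at 0 left out (no member value is 0), single probes, turned signs on the Cy3-driven arrays and limma over the arrays as replicates. In that last fit, which pools the spread of both forms, osk with D168A had an unadjusted p of 0.0418 (adjusted p = 1), as 246 of 10804 genes were under 0.05; this p covers hybridisation and dye error only, since the arrays are a dye swap of 1 replicate, and no other member was under 0.05 in either form. After turning the Cy3-driven arrays, capu had an unadjusted p of 0.0303 in limma for the common contrast (adjusted p = 0.737). If all 4 arrays run driven over non-driven, as taken here, that run compares Cy5 with Cy3 and not driven with non-driven cells. On a single dye orientation 3 of 8 member values turned sign with D168A on either array, and 2 and 4 with D168D (Cy3-driven and Cy5-driven). In the common contrast 0 and 4 turned, and in the difference 3 and 0. Centring turned none. With the median over probes, chosen after seeing the data, exu turned to -0.05 with D168A and osk to -0.04 with D168D. In the common contrast bcd turned to -0.02 under that setting. Over single arrays, single probes averaged over both arrays, centring and the median over probes, osk with D168A stayed between -0.65 and -0.23. Both arrays and all its probe means were already below 0, so these runs could not turn its sign. Probe 2 of osk alone was at 0.05 on the Cy3-driven D168A array.

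Counts over all genes, which set the background, moved more. They were 17 with D168A, 18 with D168D and 15 for the difference, and became 62, 117 and 89 at 1.5-fold, 35, 53 and 66 for the mean alone, and 32, 40 and 29 by probe. Single dye orientations gave 66 and 265, 120 and 196, and 134 and 438. With the sign turned they were 7, 5 and 14, and with limma over the arrays 1, 1 and 0 (246, 694 and 230 at an unadjusted p under 0.05, of dye-swap error only). With every probe required, 12, 11 and 13 were left. Read as log2 the values gave 0 in each of these, and 6 in the common contrast. The 6 genes of the common contrast became 2 and 0 on single orientations, 3 after centring, 14 without features at 0, and 0 by probe or with the sign turned. Unless shown by construction, the cause was not tested. No fit with the replicate number as a block was possible because the forms share a single number; the forms were set against each other within dye orientations. No intensities were used, so what dim spots limit is unknown.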
